A study of Homo sapiens with 6 samples.

Results

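Long intergenic non-coding RNA (lincRNA) genes are transcribed between protein-coding genes and yield long RNAs without a recognised protein product. The genes described here are the 260 lincRNA genes that ES2 cells transcribed at a mean of at least 2 CPM, counts scaled to a common library total, out of 7629 lincRNA genes and 58735 genes in the table. They were chosen by annotated biotype and by mean CPM (averaged over the 6 libraries). Levels therefore chose the genes and are given as a description, whereas the difference between the siRNA groups was not a criterion and could be tested. The mean over both groups still lets a gene in through its higher group: the control mean was under 2 CPM in 11 genes, of which 2 rose (AC009275.1 and AC102953.2), and the siUAP1 mean in 6, of which none was called.

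RNA-seq was made from ES2, an established ovarian cancer cell line labelled as high-grade serous carcinoma. The 3 control libraries came from cells given a control siRNA (genotype label WT). The 3 siUAP1 libraries came from cells given siRNA against UAP1 (genotype label UAP1 knockdown), the enzyme that makes UDP-N-acetylglucosamine, the sugar donor for protein glycosylation. In both groups the medium was changed 6 h after transfection and RNA was taken at 48 h. The protocol names 2 UAP1 siRNAs without saying whether they were pooled or which library received which, and 1 control siRNA. The labels leave out whether replicates were grown apart, so each p-value reflects only the scatter among these libraries of 1 cell line, and that scatter could be technical.

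Library totals ran from 21267240 to 25972582 counts, and the 260 genes held 0.308% to 0.356% of them. UAP1 itself averaged 382 ± 54.1 CPM with control siRNA and 23.4 ± 1.70 CPM with UAP1 siRNA (SD, n = 3), a log2 fold change of -4.02 with an SE of 0.0575 (edgeR, adjusted p = 1.65e-25). Of 12 markers of the labelled tumour type, 7 reached 1 CPM, and their summed level was 802 to 898 CPM in control and 1125 to 1422 CPM in siUAP1 libraries. KRT7, KRT8 and KRT18 made up nearly all of that sum, MUC16 and SOX17 had no count in any library, and EPCAM, CDH1 and MSLN had at most 6 counts each over all 6. The part of this shift in the results below was not tested. Of the 4 leukocyte and 3 erythroid markers none reached 1 CPM, while the mesenchymal markers VIM, FN1, CDH2 and ZEB1 all did, and of 3 endothelial markers CDH5 (145 CPM with control siRNA and 148 CPM with UAP1 siRNA) and PECAM1 (1.57 and 1.58 CPM) did but VWF (0.388 and 0.789 CPM) did not. The bulk libraries cannot tell fewer cells of a kind from less RNA per cell.

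Many lincRNAs work as RNA. NEAT1 is the scaffold of nuclear paraspeckles, MALAT1 sits in nuclear speckles, and NORAD is a cytoplasmic RNA that binds Pumilio proteins. LINP1 is a scaffold in the joining of broken DNA ends. Others are host genes, whose primary transcript is cut or spliced to release a microRNA (miRNA) or a small nucleolar RNA (snoRNA).

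Sequence shows what some of these RNAs carry. Of the 260 genes, 18 overlapped an annotated miRNA gene, with 31 miRNA genes in all. For 26 of these, mature sequences were read from RefSeq (GRCh38.p14), giving 45 mature sequences and 37 different seeds. The miRNA genes inside PVT1 and NEAT1 were not among those read, so the seeds of these hosts are missing from the counts. Among the sequences read, the seed GAGGUAG recurred in 5 mature miRNAs from 4 host genes. These are shown because the hosts had log2 differences of both signs in the comparison below. Seeds that recurred inside a single host include those of the miR-30 pair of LINC00472, shown because this host fell. Those of the miR-221 and miR-222 pair of MIR222HG are shown too. Others, of the miR-29 pair of AC016831.6 and the let-7a-3p and let-7b-3p pair of MIRLET7BHG, are not shown. The miR-29b gene of that pair, MIR29B1, also lies in LINC-PINT, which overlaps AC016831.6. Mature sequences are 5′ to 3′, and capitals mark the seed (bases 2 to 8), the stretch that pairs with target mRNAs.
let-7i-5p, in AC048341.1: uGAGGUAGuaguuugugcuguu
let-7a-5p, in MIRLET7BHG: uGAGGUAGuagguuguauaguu
let-7b-5p, in MIRLET7BHG: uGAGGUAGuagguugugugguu
let-7c-5p, in MIR99AHG: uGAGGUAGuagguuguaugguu
miR-4458, in MIR4458HG: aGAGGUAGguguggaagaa
miR-30a-5p, in LINC00472: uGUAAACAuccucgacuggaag
miR-30c-5p, in LINC00472: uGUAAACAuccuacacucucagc
miR-221-3p, in MIR222HG: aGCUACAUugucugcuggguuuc
miR-222-3p, in MIR222HG: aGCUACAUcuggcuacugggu

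NORAD, the lincRNA gene of highest mean CPM, carries repeats of the Pumilio response element, TGTANATA. Its GENCODE release 29 transcript of 5339 bases held 15 of them, read on the transcript strand only. At least 1 element was present in 41 of the 260 expressed genes (15.8%) and in 723 of all 7629 lincRNA genes (9.48%), and only 2 lincRNA genes held 15 or more. Transcripts differ in length, so these shares describe and do not test. A selection of the NORAD elements follows with 8 bases on each side, chosen to show the variants at the base written N and the similar flanks, with the element in capitals.
NORAD bases 1140 to 1147: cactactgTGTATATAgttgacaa
NORAD bases 1241 to 1248: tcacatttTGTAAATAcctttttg
NORAD bases 1451 to 1458: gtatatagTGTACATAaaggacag
NORAD bases 2972 to 2979: ccctactgTGTATATAgcggacaa

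Expression was concentrated in a few genes. The median gene had 5.20 CPM, 64 genes reached 10 CPM and 13 reached 50 CPM. NORAD averaged 405 CPM and NEAT1 218 CPM, and these 2 held 18.8% of the summed CPM of all 260 genes. XIST (95.1 CPM), MALAT1 (79.5), AC025419.1 (77.7), AP005233.2 (76.5), EBLN3P (75.8), OLMALINC (72.2), LINC00707 (67.8) and MANCR (66.8) completed the 10 highest, which together held 37.2%. OLMALINC was named for oligodendrocyte maturation and MANCR for mitosis.

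Per length the order differed. On the deposited FPKM (fragments per unit of gene length and of library size), AP005233.2 was first at 204, followed by NORAD at 75.3, SNHG8 at 48.2, LINC02376 at 42.2, SNHG19 at 39.3, LINC00973 at 38.7, MANCR at 34.5, MIR503HG at 30.4, ARLNC1 at 22.1 and AL365356.5 at 20.9. NEAT1, a transcript of over 20 kilobases, had 9.45 FPKM. The median was 2.62 FPKM and the lowest 0.159. Just inside the limit of 2 CPM lay DNAJC3-DT (2.03), AL445250.1 (2.02) and SFTA1P (2.01), and just outside it RFX3-AS1 (1.99), AC015922.2 (1.97) and LINC01588 (1.97).

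Within replicate pairs, 26 of the 260 genes rose and 18 fell after UAP1 siRNA, and 216 did not pass the test. The test was edgeR's quasi-likelihood test over all 15768 genes with enough counts, with the replicate number of the titles as a block and Benjamini-Hochberg adjusted p under 0.05. The fit without the block was planned as the main one, because the labels state no pairing. Library names do carry a code that the control and siUAP1 library of each number share and that differs between numbers. What the code stands for is not given. In these data libraries of the same number deviated together, and "rose" and "fell" refer to the fit with the block throughout. The 26 that rose are 10.0% of the genes, beside 9.07% of all genes tested, and the 18 that fell are 6.92%, beside 7.15%. In either direction 44 passed (16.9%), beside 16.2% of all genes tested and 19.9% of those of at least 2 CPM. These pooled shares lay near the background, so the number of calls is not a result about lincRNA genes as a class. Within each range of level given below, the share lay above that of all genes in the range, a difference that was not tested.

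With the groups compared alone, without the block, 1 of the 260 genes passed, LINC02376, which was lower in siUAP1 libraries, beside 0.108% of all genes tested. At unadjusted p under 0.05, that fit held 22 of the 260 genes and the fit within pairs 78. DESeq2 with the block called 14, 4 higher and 10 lower in siUAP1, all of them among the 44. Leaving out 1 pair mattered for most of the calls: 13 of the 44 passed whichever pair was left out, 9 that fell and 4 that rose. Of the 26 that rose, 13 also passed without pair 1, 19 without pair 2 and 6 without pair 3, and of the 18 that fell these counts were 12, 13 and 13.

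Differences were small. The median log2 fold change of the 260 genes was 0.01 (quartiles -0.21 and 0.24), beside 0.00 over all genes tested (quartiles -0.13 and 0.14). The wider spread came with a larger error, a median SE of 0.162 beside 0.0887. The 44 that passed had a median size of 0.54, and 1 of them, AL449043.1, reached a 2-fold difference. All 3 siUAP1 values lay on one side of all 3 control values in 40 genes (15.4%, beside 12.4% of all genes tested), above in 18 and below in 22. Of the 44 called genes, 18 had such separate groups and 40 moved the same way in all 3 pairs.

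The share of calls was higher among the more abundant genes. Among the 126 genes of 2 to 5 CPM, 10 rose and 1 fell (8.73%, beside 7.53% of all genes in that range). Among the 70 of 5 to 10 CPM, 4 rose and 6 fell (14.3%, beside 11.6%), and among the 64 above 10 CPM, 12 rose and 11 fell (35.9%, beside 23.0%). For scale, the same test called 7.6% of 250 antisense genes and 20.8% of 11286 protein-coding genes past the same limit on level, with medians of 4.06 and 36.9 CPM.

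**Figure D1:**
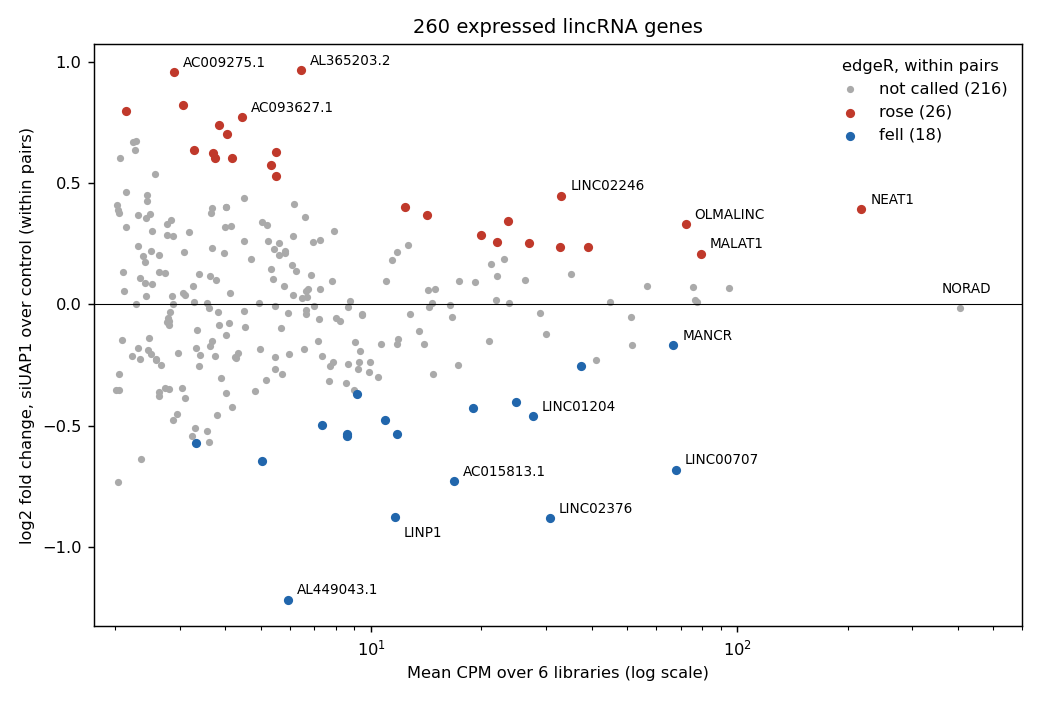
Each point is 1 of the 260 expressed lincRNA genes, with its mean CPM over 6 libraries on a log axis and its log2 fold change, siUAP1 over control, from edgeR within replicate pairs. Red points (26) rose, blue points (18) fell and grey points (216) did not pass, and NORAD lies at the far right near 0 while AL449043.1 is lowest at -1.22.

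The genes that fell included a pair of neighbours on chromosome 10 and 1 of the most abundant RNAs per length. LINC02376 (chr12:127274467-127284283, minus strand, GRCh38) stood at 41.9, 35.3 and 42.6 CPM in control libraries 1 to 3 and at 21.8, 20.3 and 22.8 CPM in siUAP1 libraries 1 to 3. Every control value exceeded every siUAP1 value, and the level was 1.84-fold lower (log2 -0.88, SE 0.0727, edgeR adjusted p = 2.44e-09). It was also the gene called with the groups alone (adjusted p = 0.0453), a call lost when any 1 library was left out (adjusted p 0.124 to 0.272).

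LINC00707, a gene named in studies of several cancers, was the most abundant in CPM of the genes that fell. Its control libraries held 67.2, 71.3 and 113 CPM and its siUAP1 libraries 39.8, 48.4 and 68.0 CPM. The groups overlapped because number 3 was high in both, while within each pair siUAP1 was lower (log2 -0.68, SE 0.0565, adjusted p = 2.63e-09). With the groups alone its adjusted p was 0.525.

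LINP1, the end-joining scaffold, lies 39016 bases from LINC00707 on the same strand. It held 13.3, 15.5 and 16.2 CPM in control libraries and 7.15, 8.10 and 9.25 CPM in siUAP1 libraries. The groups did not overlap, and the level was 1.84-fold lower (log2 -0.88, SE 0.109, adjusted p = 1.88e-06, 0.118 with the groups alone).

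AL449043.1 had the largest fold of the 260 genes. It held 8.41, 8.91 and 7.53 CPM in control libraries and 4.18, 3.10 and 3.45 CPM in siUAP1 libraries, 2.33-fold lower and without overlap (log2 -1.22, SE 0.157, adjusted p = 3.21e-06, 0.0796 with the groups alone). Its transcript matched LINC01961, AL353608.3 and BX255923.2 over its whole length, with best identities of 98.4% to 99.1%. The counts of this family are therefore uncertain, although those copies were each counted below 0.4 CPM.

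AC015813.1 rested largely on 1 library. It stood at 13.3, 35.9 and 14.9 CPM in control libraries and 10.3, 14.8 and 11.2 CPM in siUAP1 libraries, with control 2 far above the rest. It was lower in every pair (log2 -0.73, SE 0.128, adjusted p = 0.000204), with a log2 fold change of -0.39 and an adjusted p of 0.0408 without pair 2.

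LINC00294, LINC01204, AC105277.1 and AC090409.1 also fell whichever pair was left out. Their log2 fold changes were -0.54, -0.46, -0.43 and -0.40, with adjusted p of 0.000915, 8.94e-05, 0.0019 and 0.00183. LINC01204 held 29.6, 33.7 and 32.6 CPM in control libraries and 21.2, 26.2 and 22.4 CPM in siUAP1 libraries, without overlap. LINC00294 shares exon bases on the other strand with CSTF3, and AC090409.1 shares them on its own strand with AC105094.2, so without a stated use of strand the source of some reads is uncertain.

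The other 9 falls each lost the call without at least 1 pair. LINC01003 (log2 -0.65) had an adjusted p of 0.152 without pair 1, LINC02057 (-0.54) 0.0584 without pair 3, and AC005261.1 (-0.48) 0.253 without pair 2. LINC02407 (-0.54) had 0.241 without pair 1 and 0.114 without pair 3. PWAR6 (-0.37), from the imprinted Prader-Willi region and inside SNHG14, had 0.183 without pair 1 and 0.284 without pair 2. LINC00973 (-0.25) had 0.113 without pair 1 and 0.0643 without pair 3. MANCR (-0.17) had 0.113, 0.16 and 0.0873 without pairs 1, 2 and 3. Without the first pair named for each, the log2 differences of LINC01003, LINC02407 and AC005261.1 were -0.42, -0.29 and -0.27.

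LINC00342 (-0.50) rested on control 2, at 15.5 CPM beside 6.58 and 4.30 in the other control libraries and 5.31, 7.72 and 4.35 in siUAP1 libraries. Its adjusted p was 0.035, and without pair 2 the log2 difference was -0.15 (adjusted p = 0.729). It has copies of up to 99.5% identity, AC092683.1 and AC159540.2, so its counts are uncertain too. LINC00472, the miR-30 host, is given with the host genes.

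Genes that rose had a median level of 5.97 CPM, and 4 of the 26 kept the call whichever pair was left out. AL365203.2 (chr10:32887255-32889311, minus strand) held 4.70, 4.24 and 4.13 CPM in control libraries and 9.12, 7.91 and 8.51 CPM in siUAP1 libraries. The groups lay well apart, with a 1.95-fold higher level (log2 0.97, SE 0.143, adjusted p = 2.27e-05, 0.118 with the groups alone). AC009275.1 (chr7:134416290-134432453, minus strand) held 1.93, 1.77 and 2.21 CPM in control libraries and 3.64, 4.40 and 3.45 CPM in siUAP1 libraries, again without overlap (log2 0.96, SE 0.22, adjusted p = 0.00311), and its control mean of 1.97 CPM lay under the limit on level. AC093627.1 held 3.90, 3.26 and 2.70 CPM in control libraries and 6.06, 5.93 and 4.78 CPM in siUAP1 libraries, also without overlap (log2 0.77, SE 0.173, adjusted p = 0.00246). These 3 passed without any 1 pair.

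The fourth such gene, LINC02246, was more abundant. It held 34.9, 25.4 and 22.5 CPM in control libraries and 53.4, 35.6 and 26.2 CPM in siUAP1 libraries. The groups overlapped, and siUAP1 was higher in each pair (log2 0.45, SE 0.0771, adjusted p = 0.000157, 0.813 with the groups alone). AF127577.4 overlaps LINC02246 and the gene NRIP1 on the same strand and rose as well (log2 0.34, adjusted p = 0.00761), so the reads of these genes are not fully separable. Its adjusted p was 0.123 without pair 1 and 0.115 without pair 3.

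The other rises among the 12 largest had log2 fold changes of 0.60 to 0.82, and all lost the call without at least 1 pair. AC048341.1 (0.82) is given with the host genes. AC102953.2 (0.80) had an adjusted p of 0.474 without pair 3, LINC00942 (0.74) 0.0593 without pair 2, and SRP14-AS1 (0.63) 0.101 without pair 3. AL365181.2 (0.70) had 0.0588 without pair 1 and 0.0763 without pair 3, and LINC00997 (0.60) 0.327 and 0.191. LINC01119 (0.64), LINC00842 (0.62) and LINC02043 (0.61) lost it without each pair (adjusted p 0.0547 to 0.165). The log2 difference was 0.45 for AC102953.2 without pair 3 and 0.37 for LINC00997 without pair 1. Groups did not overlap for SRP14-AS1, with 4.37, 4.36 and 4.21 CPM in control libraries and 7.4, 5.70 and 7.02 CPM in siUAP1 libraries. Nor did they for LINC00942, at 2.91, 2.32 and 3.44 CPM in control libraries and 4.89, 4.66 and 4.82 CPM in siUAP1 libraries.

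OLMALINC was an abundant gene whose rise (log2 0.33, adjusted p = 0.00575) came from 2 of the 3 pairs. It held 75.7, 59.0 and 52.9 CPM in control libraries and 121, 56.1 and 68.2 CPM in siUAP1 libraries, so that pair 2 differed little and in the other direction. Its log2 difference was 0.15 without pair 1 (adjusted p = 0.142) and 0.52 without pair 2, and its adjusted p was 0.14 without pair 3.

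A further 7 genes that rose had log2 fold changes of 0.24 to 0.58, and each of these lost the call without at least 1 pair. AC009549.1 (0.58), which lies inside NAV2, had an adjusted p of 0.07 without pair 1 and 0.0571 without pair 3, and LINC02577 (0.53) 0.0579 without pair 1 and 0.222 without pair 2. LINC01583 (0.37) had 0.458 without pair 1 and 0.311 without pair 3, and LINC00667 (0.26) 0.328 and 0.135. BAIAP2-DT (0.40), LINC01547 (0.24) and AC103718.1 (0.24) lost it without pair 3, at 0.0842, 0.185 and 0.204. Without pair 1 the log2 difference was 0.19 for LINC01583 and 0.15 for LINC00667, and without pair 2 it was 0.63 for LINC01583.

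**Figure D2:**
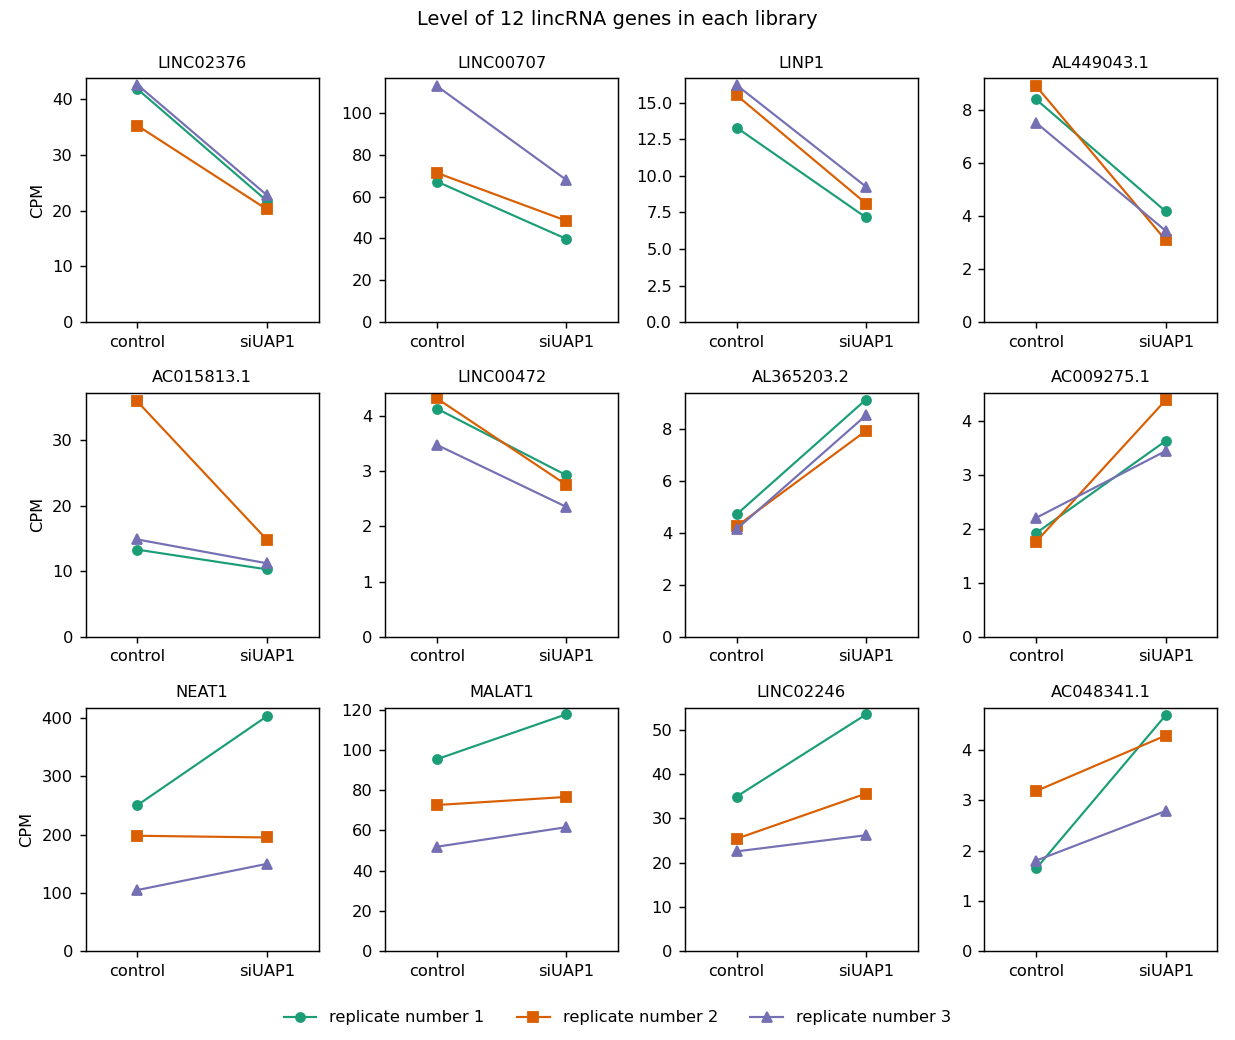
CPM of 12 lincRNA genes in every library, with a line joining the control and siUAP1 library of each replicate number (1 green, 2 orange, 3 violet) and each axis starting at 0. The lines of LINC02376, LINP1 and AL449043.1 all go down without overlap of the groups, AC015813.1 has 1 high control library at 35.9 CPM, and the NEAT1 line of number 2 is flat.

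Of the RNAs listed for nuclear bodies and chromatin, 4 were among the 260 genes. NEAT1 and MALAT1 rose, while XIST and JPX did not pass. Listed RNAs of another biotype or a lower level were left out, here and in the other lists of RNAs. Over all genes tested 9.07% rose, and 4 genes are too few to set against that share. NEAT1 held 250, 198 and 105 CPM in control libraries and 403, 195 and 150 CPM in siUAP1 libraries. Libraries of number 1 were highest and of number 3 lowest in both groups, and siUAP1 was higher in pairs 1 and 3, by 60.9% and 42.7%, but not in pair 2. The log2 fold change was 0.39 (SE 0.077, adjusted p = 0.000656), with an adjusted p of 0.0943 without pair 3 and 0.936 with the groups alone. Without pair 1 the log2 fold change was 0.24 and without pair 2 it was 0.60. DESeq2 with the block gave an adjusted p of 0.28.

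MALAT1, whose gene lies 52147 bases from NEAT1, held 95.4, 72.6 and 51.9 CPM in control libraries and 118, 76.7 and 61.6 CPM in siUAP1 libraries. It was higher in each pair by 5.52% to 23.4% (log2 0.21, SE 0.0552, adjusted p = 0.00943). The adjusted p was 0.0811 without pair 1, 0.129 without pair 3 and 0.972 with the groups alone. XIST averaged 92.6 ± 43.5 CPM with control siRNA and 96.7 ± 42.5 CPM with UAP1 siRNA (SD, n = 3), a log2 difference of 0.07 (adjusted p = 0.438). JPX, which lies beside XIST, had a log2 difference of -0.21 (adjusted p = 0.517).

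Among genes for paraspeckle proteins, the partners of NEAT1, no rise was called. Of 16, none rose and 6 fell. Over all genes tested 7.15% fell, and of protein-coding genes of at least 2 CPM 1051 of 11286 did. The median log2 fold change of the 16 was -0.09, beside 0.00 over all genes tested. The genes named here are 5 of the 6. PSPC1 went from 57.1 ± 3.78 to 45.6 ± 3.57 CPM (log2 -0.32, adjusted p = 0.000653, 0.0709 without pair 3). TARDBP (-0.19), RBM14 (-0.17), CPSF6 (-0.15) and HNRNPH1 (-0.15) fell by less and lost the call without pair 3 (adjusted p 0.108 to 0.276), and the last 3 of these also without pair 1 (0.141 to 0.221). The core proteins NONO (-0.10, adjusted p = 0.153) and SFPQ (-0.04, adjusted p = 0.602), which bind NEAT1 directly, did not pass. With the groups alone none of the 16 was called.

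NORAD, the most abundant lincRNA by CPM, differed little between the groups. It held 357, 423 and 440 CPM in control libraries and 341, 434 and 435 CPM in siUAP1 libraries. The groups overlapped throughout, with a log2 difference of -0.01 (SE 0.0459, adjusted p = 0.889). A copy in OVCH1-AS1 matches its transcript at up to 95.9% identity and was counted at 0.183 CPM. Its partner PUM2 (log2 0.05, adjusted p = 0.521) did not pass. In the list of 5 genes kept for NORAD and its binding proteins 1 fell, SAMD3. Over all genes tested 7.15% fell, and 5 genes are too few to set against that share. SAMD3 went from 6.29 ± 2.08 to 3.85 ± 1.64 CPM (-0.73, adjusted p = 0.00265, 0.0531 without pair 3), and it is not an established NORAD partner. NORAD was 1 of 3 listed cytoplasmic RNAs that were among the 260 genes. Neither NORAD nor CYTOR (0.01) nor EPB41L4A-AS1 (-0.15) passed.

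Host genes were read through their own long RNA, and neither mature miRNAs nor snoRNAs were measured. Of the 18 miRNA hosts found by position, 3 rose (NEAT1, PVT1 and AC048341.1) and 1 fell (LINC00472), or 22.2%, beside 16.2% of all genes tested. The 7 snoRNA hosts, SNHG4, SNHG8, SNHG15, SNHG18, SNHG19, EPB41L4A-AS1 and LINC02001, did not pass in either direction, and with 7 genes that count cannot be set apart from the same background. SNHG8 averaged 44.5 ± 2.22 CPM with control siRNA and 45.1 ± 5.91 CPM with UAP1 siRNA (SD, n = 3), with a log2 difference of 0.01 (SE 0.0647). Of the 18 genes picked as hosts by symbol, none passed, with log2 differences from -0.31 to 0.34 and a median of -0.08.

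The 4 hosts of the GAGGUAG seed shown above had log2 differences of both signs, and 1 of them passed. AC048341.1, the let-7i host, held 1.64, 3.18 and 1.8 CPM in control libraries and 4.68, 4.28 and 2.78 CPM in siUAP1 libraries. The groups overlapped, since control 2 exceeded siUAP1 3, and each pair was higher in siUAP1 (log2 0.82, SE 0.227, adjusted p = 0.0129, 0.195 without pair 1, where the log2 difference was 0.52, and 0.0661 without pair 3). The hosts of let-7c, MIR99AHG (0.34, adjusted p = 0.186), of let-7a and let-7b, MIRLET7BHG (-0.21, adjusted p = 0.541), and of miR-4458, MIR4458HG (-0.31, adjusted p = 0.209), did not pass. The calls of 1 host and not of the others do not show that they differ, which was not tested.

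LINC00472, whose gene body holds miR-30a and miR-30c-2, stood at 4.13, 4.32 and 3.48 CPM in control libraries and 2.93, 2.75 and 2.35 CPM in siUAP1 libraries. The groups did not overlap, but the adjusted p was close to the threshold (log2 -0.57, SE 0.196, adjusted p = 0.0472) and was 0.0909, 0.175 and 0.175 without pairs 1, 2 and 3. MIR222HG, host of the miR-221 and miR-222 pair, stood at 46.8, 47.3 and 39.0 CPM in control libraries and 38.1, 31.6 and 44.5 CPM in siUAP1 libraries. Pairs 1 and 2 were lower and pair 3 higher in siUAP1 (log2 -0.23, SE 0.0904, adjusted p = 0.0915, 0.00634 without pair 3).

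**Figure D3:**
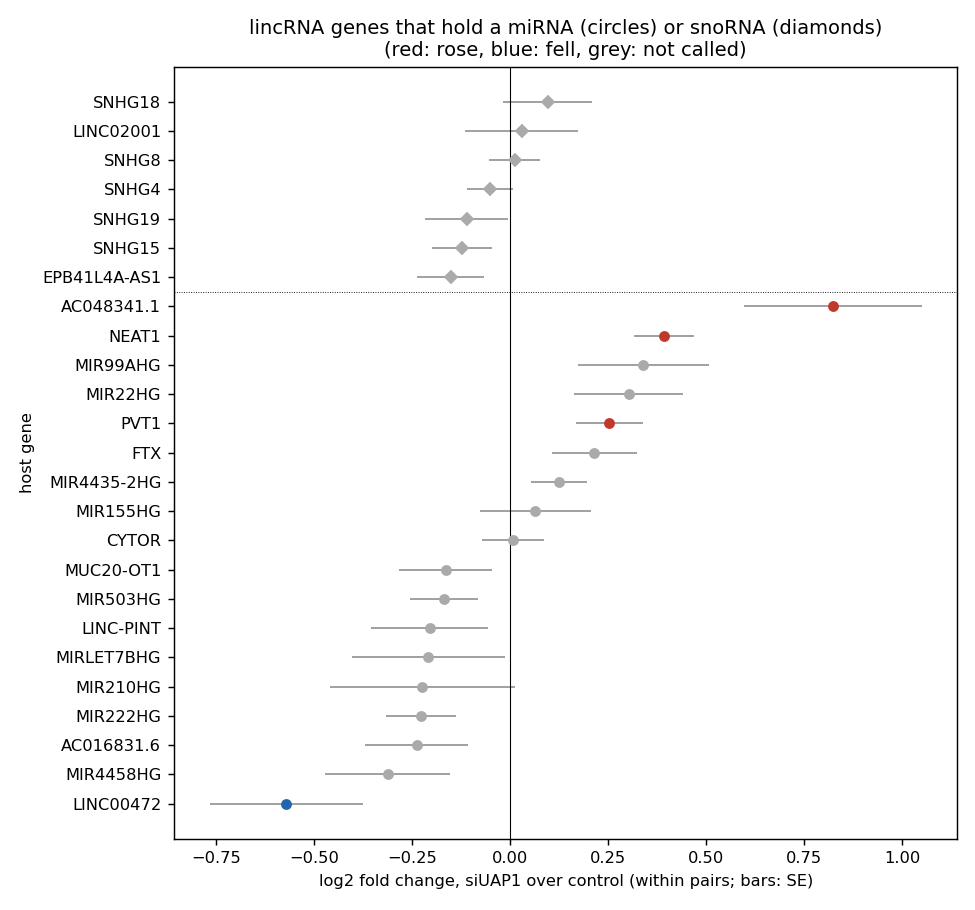
Log2 fold change, siUAP1 over control, with its SE for the 18 miRNA host genes (circles) and the 7 snoRNA host genes (diamonds) among the expressed lincRNA genes. The snoRNA hosts cluster around 0, while the miRNA hosts run from -0.57 for LINC00472 (blue, fell) to 0.82 for AC048341.1 (red, rose).

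Of the RNAs listed for p53 and stress responses, 5 were among the 260 genes, and 1 passed. That number is too small to set against the 16.2% of all genes tested. NEAT1 rose, and PURPL (0.35), TP53TG1 (0.33), MIR22HG (0.30) and LINC-PINT (-0.21) had adjusted p of 0.383, 0.396, 0.155 and 0.41. PURPL, a p53-induced RNA that lowers p53, held 3.01, 4.40 and 0.368 CPM in control libraries and 3.60, 4.59 and 1.02 CPM in siUAP1 libraries, so that the number 3 libraries were low in both groups. Of the RNAs listed from cancer or TGF-beta studies, 9 were among the 260 genes. LINC01116 and PVT1 rose, and LINC02376 and LINC00973 fell. Over all genes tested 9.07% rose and 7.15% fell, and 9 genes are too few to set against those shares. LINC01116 went from 18.0 ± 1.99 to 22.0 ± 2.29 CPM (0.29, adjusted p = 0.0245, 0.251 without pair 2 and 0.111 without pair 3). LINC00941 went from 16.2 ± 0.565 to 13.3 ± 1.46 CPM and did not pass (-0.29, adjusted p = 0.0542). PVT1 had a log2 fold change of 0.25 (adjusted p = 0.0414, 0.0609 without pair 2 and 0.531 without pair 3, where the log2 difference was 0.12).

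Factors that degrade non-coding RNA were listed as well. Of 25 genes of the nuclear exosome and its adaptors, none rose and 3 fell. Again, 7.15% of all genes tested fell, and 1051 of 11286 protein-coding genes of at least 2 CPM. The 3 were the cap-binding genes NCBP1 (-0.23, adjusted p = 0.00365) and NCBP2 (-0.25, adjusted p = 0.000338) and ZC3H18 (-0.22, adjusted p = 0.00479, 0.0759 without pair 3). ZC3H18 links the cap to the exosome. MTREX, the helicase of the nuclear exosome, had a log2 difference of -0.02 (adjusted p = 0.821). Of 18 genes of nonsense-mediated decay, the pathway that removes many spliced snoRNA host transcripts, none rose and 2 fell, SMG9 (-0.21, adjusted p = 0.0306) and EIF4A3 (-0.15, adjusted p = 0.0387). Both lost the call without pair 1 and without pair 3 (adjusted p 0.0563 to 0.264). The median log2 fold change was -0.08 for the first list and -0.04 for the other, beside 0.00 over all genes tested.

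Some expressed lincRNA genes lay near each other, and in 3 places neighbours passed in the same direction. Within 100000 bases of another, 52 of the 260 genes formed 24 loci. In 3 loci at least 2 genes passed, each time in 1 direction: LINP1 with LINC00707 fell, and NEAT1 with MALAT1 and LINC02246 with AF127577.4 rose. The last pair overlaps and may share reads, as said above, and NEAT1 and MALAT1 both lost the call without pair 3. No share over all genes stands beside this count of loci, so it is given as a description.

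Protein-coding neighbours of called lincRNA genes passed about as often as those of all 260. The nearest coding gene of at least 1 CPM lay a median of 14736.5 bases away, and 62 of the 260 neighbours passed (23.8%), beside 20.8% of protein-coding genes of at least 2 CPM. Both passed in 10 of the 44 pairs with a called lincRNA gene (22.7%), 8 in the same direction and 2 in opposite directions. Over the 260 pairs, some sharing a neighbour and all sharing the libraries, Pearson's r of the log2 fold changes was 0.192 and Spearman's rho 0.136, given as a description.

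AC009275.1 and AKR1B1, the aldose reductase gene, lie 9897 bases apart and had the largest joint rise. AKR1B1 went from 191 to 336 CPM on average (log2 0.69, SE 0.09, adjusted p = 3.95e-06), beside 0.96 for AC009275.1. ERC1 (0.35), 4592 bases from LINC00942, also rose. So did FAM20C (0.28), a secretory-pathway kinase gene 97286 bases from AC093627.1, and SOCS5 (0.27), 36452 bases from LINC01119. JUN, a subunit of the transcription factor AP-1, fell (log2 -0.26, adjusted p = 0.000174), as did AC105277.1, 98541 bases away. BBS10 (-0.24) fell 39343 bases from LINC02407, and ANKRD36C (-0.53) 20704 bases from LINC00342. FAM49B (0.39) rose 116570 bases from AC103718.1 (0.24). Opposite directions were called for DCBLD2, a membrane receptor gene that rose (0.33) 79369 bases from LINC00973. They were also called for INTS1, an Integrator subunit gene that fell (-0.19) 2755 bases from AC102953.2. Of these neighbours, BBS10 lost the call without pair 2 (adjusted p = 0.154) and pair 3 (0.175), ANKRD36C without pair 2 (0.3), and SOCS5 (0.0862) and INTS1 (0.276) without pair 3.

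Divergent genes, as counted here, start within 1000 bases of a coding gene's start on the other strand. Some of them, such as MAPKAPK5-AS1, overlap that gene at its start. The 58 such lincRNA genes had a median of 4.31 CPM, beside 5.37 CPM for the other 202, and the share of calls was higher among more abundant genes. Of the 58, 6.90% were called, beside 19.8% of the other 202 and 16.2% of all genes tested, a difference that was not tested. None fell, and 4 rose (LINC01547, BAIAP2-DT, SRP14-AS1 and AL365181.2). Their coding partners FAM207A (-0.21), BAIAP2 (-0.16), SRP14 (0.00) and BCAN (0.07) did not pass. Of all 58 partners 13 passed (22.4%), and in no pair did both pass. With 4 lincRNA genes called, that absence cannot be set apart from the share of partners that passed.

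**Figure D4:**
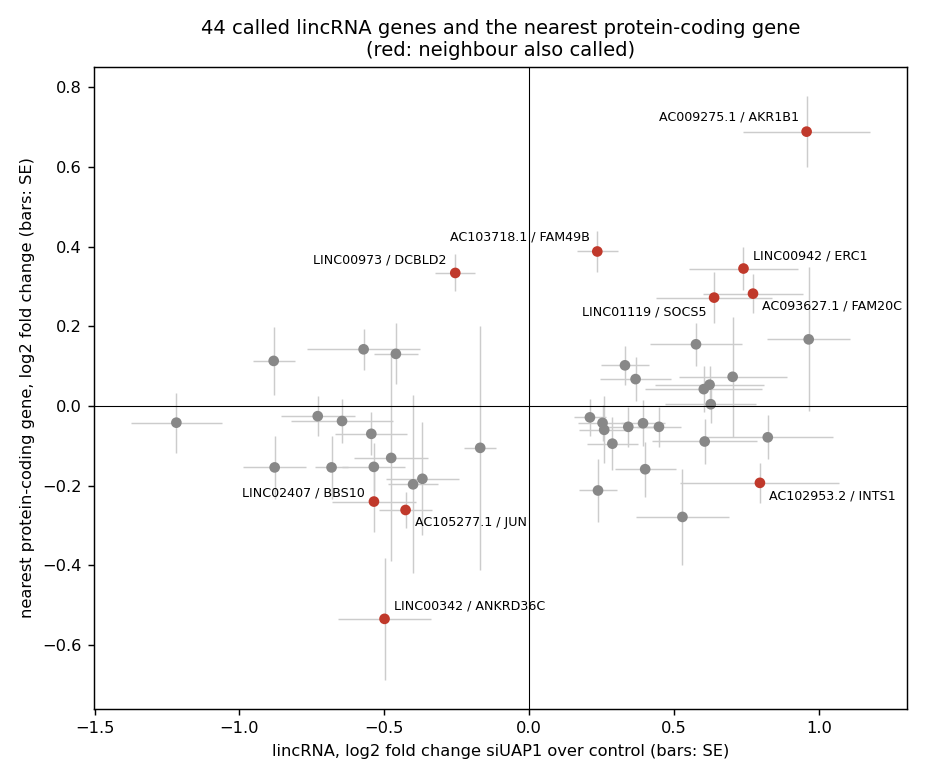
Log2 fold change, siUAP1 over control, of the 44 called lincRNA genes (horizontal) and of the nearest protein-coding gene (vertical), with bars for the SE. In the 10 red pairs the neighbour passed too, and 8 of these lie in the quadrants of equal sign, with AC009275.1 and AKR1B1 farthest out.

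Structure was compared by description only. The median exonic length was 3009 bases for genes that rose, 2269 for those that fell and 2329 for the rest, with a median of 4, 4 and 3 exons and a GC content of 47.6%, 44.7% and 46.0%. Of 55 genes with a single exon, 5 rose and 4 fell (16.4%, beside 16.2% of all genes tested). The median levels were 5.97, 11.7 and 4.49 CPM. Another gene of at least 1 CPM overlapped 74 of the 260 genes, of which 9 rose and 6 fell (20.3%). Among the 186 without such an overlap 17 rose and 12 fell (15.6%). These shares lay near that of all genes tested and are not a result about structure. A copy of at least 95% identity over at least 50% of the transcript existed for 15 genes. Of these 2 were called, and 15 genes are too few to set against 16.2%. CYTOR and MIR4435-2HG are such a pair, so that their counts may be mixed. Matches of at least 95% identity, the best of them 100%, covered 68.2% of the latter.

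Promoter letters were searched in the 70 genes whose RefSeq start (GRCh38.p14) lay within 100 bases of the annotated one, from 250 bases before to 50 after the start, on both strands, beside all 34943 RefSeq promoters of the same length. The GC-box core GGGCGG was present in 57.1% (all promoters 44.9%), the AP-1 motif TGANTCA in 12.9% (7.72%), the TATA motif TATAAA in 7.14% (11.6%) and the E-box CACGTG in 5.71% (7.23%). Of the 7 that rose, 4 held GGGCGG, and of the 6 that fell, 1 did. A match describes letters and is no evidence of binding.

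Levels also differed between replicate numbers. The log2 range over the means of the 3 numbers had a median of 0.45, beside 0.35 for all genes tested. In 30 genes (11.5%, beside 11.3% of all tested) it was at least 1. PURPL averaged 3.30, 4.49 and 0.694 CPM in numbers 1, 2 and 3, and NEAT1 327, 197 and 127 CPM. LINC01235, chosen after its values were seen, averaged 7.78, 1.55 and 1.92 CPM, with a log2 difference between the groups of 0.10 (adjusted p = 0.8). What the numbers stand for is not given in the labels.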

How the data were processed

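For 6 libraries the authors deposited raw counts and FPKM per gene, with biotypes and coordinates, and GRCh38.p12 and DESeq2 are named per the submitters' processing notes. Which aligner, counting tool and strand setting were used is not given in the sources used here. Per the labels' protocols the libraries were poly(A) enriched or depleted of ribosomal RNA, without saying which, and the molecule is given as polyA RNA. Start and end matched GENCODE release 29 for 58724 of 58735 genes and for all 260 members.

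Counts were fitted with edgeR 4.0.16 (TMM, filterByExpr with a minimum count of 10, quasi-likelihood test, Benjamini-Hochberg over 15768 genes, threshold 0.05), with the groups alone and with the replicate number as a block. The code was tested on simulated data. CPM in the text are scaled by TMM, except in the rule and in mean levels over 6 libraries, which use library totals. Standard errors of the log2 fold change were derived as its size divided by the square root of the quasi-likelihood F statistic. Values after ± are SD over 3 libraries. Fits without a pair rest on 2 pairs, and in fits without 1 library the group of 2 is assumed to vary like the group of 3. Titles number the replicates 1 to 3 in both groups, and same-numbered libraries share an unexplained code in their library names. Over all genes tested, deviations from the group mean correlated at 0.552, 0.454 and 0.584 between same-numbered libraries, and the numbers were taken as pairs. Other correlations were -0.434 to -0.0893. Centring each group on its own mean makes these negative on balance once the same-numbered ones are positive, so they add no separate evidence. The smallest member count in a library was 9 and the median 122, and counting error limits the low members most.

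Alternatives were DESeq2 1.42.0, limma 3.58.1 (voom, and log2(FPKM + 1) or log2(FPKM + 0.1), with and without a filter at a mean of 0.1 FPKM), other scalings and filters, and leaving out libraries. Named genes were the 12 largest rises and 12 largest falls, the 5 of smallest p and any called with the groups alone, the 10 highest by CPM and by FPKM, the genes in the role lists, those next to the limit of 2 CPM, the nearest coding genes and UAP1; other members named were called. Near-copies were found with BLAST 2.17.0. The members and lists were chosen with earlier results of these data known. Some genes of the lists are not reported here by name.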

Additional observations from a re-analysis of the deposited data

How the results depend on the processing

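The count of called genes depended on the pairing of replicate numbers: 44 with the replicate block and 1 without it. Within pairs, the 44 calls became 14 with DESeq2 (4 higher, 10 lower in siUAP1), 9 with limma on log2(FPKM + 0.1) and 9 on log2(FPKM + 1) (each 3 higher, 6 lower) and 0 without a filter on FPKM. Restricting the list to genes that overlap no gene of at least 1 CPM left 29. Leaving out 1 pair gave 20 to 39 calls. RLE scaling, library totals, voom and other filters gave 40 to 52.

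With the groups alone, the 1 call became 4 with DESeq2 (1 higher, 3 lower), 6 with no filter beyond 1 count (1 higher, 5 lower), and 0 with voom, with both FPKM pseudocounts, without a filter on FPKM, and when any 1 library was left out (0 to 0). Of the 31 called genes named by rule, 10 kept the call with DESeq2, 28 with voom and 7 on FPKM, and none changed direction. The median log2 fold change of the list ranged from -0.01 to 0.04 over the fits with 1 pair left out. The 3 libraries a group and low counts limit what can be called below 5 CPM.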
